A study of Homo sapiens with 9 samples.

Results

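The 8 genes described here encode the enzymes that build gangliosides from ceramide, with ST8SIA1, the GD3 synthase, at the branch to the b-series. They were taken as a list of GENCODE symbols (ST8SIA1, ST3GAL5, B4GALNT1, UGCG, B4GALT5, B4GALT6, ST3GAL2 and B3GALT4), and all 8 were found among 58233 gene identifiers and among the 15440 genes with enough counts to be tested. The pathway was selected on the higher ST8SIA1 counts of treated than of control libraries, so the differences of ST8SIA1 from control are given below as a description with no p-value. RNA was measured in UPCI-SCC-040, a line from a squamous carcinoma of the tongue, in 3 groups of 3 libraries: TGF-β1 at 5 ng/ml with harvest at 48 h, the same dose with harvest at 72 h, and untreated controls, whose titles give 0 h. TGF-β1 is a cytokine that signals through SMAD transcription factors. Replicates 1, 2 and 3 of every group are passages 12, 13 and 8. TGF-β1 was given without serum or antibiotics, while the growth medium of the line held both, and the labels do not say that controls were kept without serum. The effects of the cytokine, of serum loss and of days in culture therefore cannot be told apart in the comparisons with control. All libraries come from 1 tumour line, and p-values reflect no spread beyond that of these cultures.

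Gangliosides are sialic acid-bearing glycosphingolipids of the outer plasma membrane. UGCG puts glucose on ceramide, B4GALT5 and B4GALT6 add galactose to make lactosylceramide, and ST3GAL5 adds the first sialic acid to give GM3. ST8SIA1 adds a second sialic acid to GM3 to give GD3, the entry to the b-series, while B4GALNT1, B3GALT4 and ST3GAL2 extend the chains to GM2 and GD2, to GM1 and GD1b, and to GD1a and GT1b. GD3 and GD2 are known as surface antigens of neuroectodermal tumours and melanoma.

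The line carried its labelled identity in all groups. All 10 squamous epithelial markers averaged at least 1 CPM (counts scaled to library size, with TMM factors), while none of the 6 leukocyte and none of the 4 endothelial markers did. Of 8 fibroblast markers, 1 did in controls (COL1A1, 10.9 CPM) and 2 did in each treated group. Of 6 neural crest and melanocyte markers, 1 did in each group (below). SMAD7, a TGF-β target that feeds back on the pathway, rose by 1.11 ± 0.15 at 48 h and 0.91 ± 0.15 at 72 h on the log2 scale (± SE, adjusted p = 0.00127 and 0.0018, edgeR), and ID1, which TGF-β represses in epithelial cells, fell by 2.94 ± 0.62 at 48 h and fell by 3.20 ± 0.63 at 72 h (adjusted p = 0.0096 and 0.00525). Library totals ran from 12544690 to 20438727 counts. The library of passage 8 at 72 h stood apart from the other 8: MALAT1, a nuclear RNA, took 1.54% of its counts, against 0.247% to 0.507% in the others, and its score on the first principal component was 84.4, with 37.8 the next highest. Some results that rest on this library are given with and without it and others only with it, and its part in them was not tested.

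The promoters of ST8SIA1 and B4GALT5, which were higher at both times, are printed beside that of UGCG, the most abundant enzyme in controls, because the treatment acts through SMAD factors. Each is the 250 bases before the start site that RefSeq gives on GRCh38.p14, and 4 of the 8 genes had such a window. All run 5′ to 3′ on the strand of the gene, and capitals mark the SMAD box CAGAC or its reverse complement GTCTG. ST8SIA1 is at chr12:22334708-22334957 on the minus strand, B4GALT5 at chr20:49713879-49714128 on the minus strand and UGCG at chr9:111896564-111896813 on the plus strand.
ST8SIA1: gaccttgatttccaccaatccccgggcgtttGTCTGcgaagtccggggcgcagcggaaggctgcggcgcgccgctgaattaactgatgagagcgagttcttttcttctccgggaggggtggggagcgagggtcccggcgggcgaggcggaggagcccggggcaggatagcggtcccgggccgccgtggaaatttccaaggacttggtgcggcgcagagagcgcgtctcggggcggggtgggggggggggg
B4GALT5: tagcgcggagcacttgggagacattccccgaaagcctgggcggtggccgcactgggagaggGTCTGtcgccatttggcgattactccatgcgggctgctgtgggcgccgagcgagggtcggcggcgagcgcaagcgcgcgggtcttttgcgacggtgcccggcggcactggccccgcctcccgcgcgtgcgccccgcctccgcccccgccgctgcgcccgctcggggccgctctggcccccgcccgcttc
UGCG: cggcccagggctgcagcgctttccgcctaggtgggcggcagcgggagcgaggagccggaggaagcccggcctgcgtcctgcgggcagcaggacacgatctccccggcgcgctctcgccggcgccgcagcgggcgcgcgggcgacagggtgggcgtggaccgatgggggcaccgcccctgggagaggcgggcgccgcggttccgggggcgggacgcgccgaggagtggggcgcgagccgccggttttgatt
The window of ST8SIA1 held 1 SMAD box, at -219 from the start, and that of B4GALT5 held 1, at -189. None lay in the window of UGCG. ST3GAL5, the other enzyme with windows, was called at neither time in the fit of all libraries, and these calls turned on 1 library (below). The same box lay in 2 of its 5 windows, which overlap, at -55 and -11 from their starts. Any relation of boxes to calls was not tested. SMAD boxes were found on either strand in 38% of all 35116 windows, so a match is common and marks no binding site here. The GC box GGGCGG, read on both strands, occurred 1 time in ST8SIA1, 3 times in B4GALT5 and 3 times in UGCG, and in 42.6% of all windows. The core of the interferon-stimulated response element, GAAANNGAA, was in none of the 3 and in 6.88% of all windows.

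ST8SIA1 (ENSG00000111728, chr12:22063773-22437041, minus strand, GRCh38) was barely detected in control cells and was higher in every treated library. It had 381, 51 and 313 counts at 48 h and 134, 127 and 660 at 72 h in passages 12, 13 and 8, against 12, 8 and 7 in controls. Scaled to depth this was 19.0, 3.12 and 25.5 CPM at 48 h and 7.55, 7.24 and 40.8 CPM at 72 h, against 0.723, 0.430 and 0.502 CPM in controls. Every treated library lay above every control, and the treated libraries differed widely among themselves, with passage 13 the lowest at both times and passage 8 the highest. The means were 15.9 ± 11.5 CPM at 48 h and 18.5 ± 19.3 CPM at 72 h, against 0.552 ± 0.153 CPM in controls (SD, n = 3 each). The fitted log2 fold change over control was 4.83 ± 1.09 (SE) at 48 h, with a 95% interval of 2.34 to 7.31, and 5.05 ± 1.09 at 72 h, with an interval of 2.56 to 7.54. Without the passage 8 library at 72 h the 72 h value was 3.74 ± 0.86. In the 3 passages taken one by one, the log2 difference from the control of the same passage was 4.5 (passage 12), 2.56 (passage 13) and 5.36 (passage 8) at 48 h, and 3.18, 3.74 and 6.04 in the same order at 72 h. In bulk RNA more cells with the transcript and more transcript per cell cannot be told apart, here or for the genes below.

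Between the treatment times ST8SIA1 did not differ beyond the spread of the libraries. Its log2 difference of 72 h over 48 h was 0.22 ± 0.82 (95% interval -1.66 to 2.11, adjusted p = 0.948, edgeR), and it was -1.09 without the passage 8 library at 72 h. CMAS activates sialic acid for all sialyltransferases, and its gene overlaps that of ST8SIA1 on the opposite strand without sharing exon bases. It had 513 to 660 counts at 48 h and 508 to 575 at 72 h, against 636 to 680 in controls. Its log2 fold change was -0.14 ± 0.17 at 48 h (adjusted p = 0.578, edgeR) and -0.36 ± 0.17 at 72 h (adjusted p = 0.116).

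**Figure D1:**
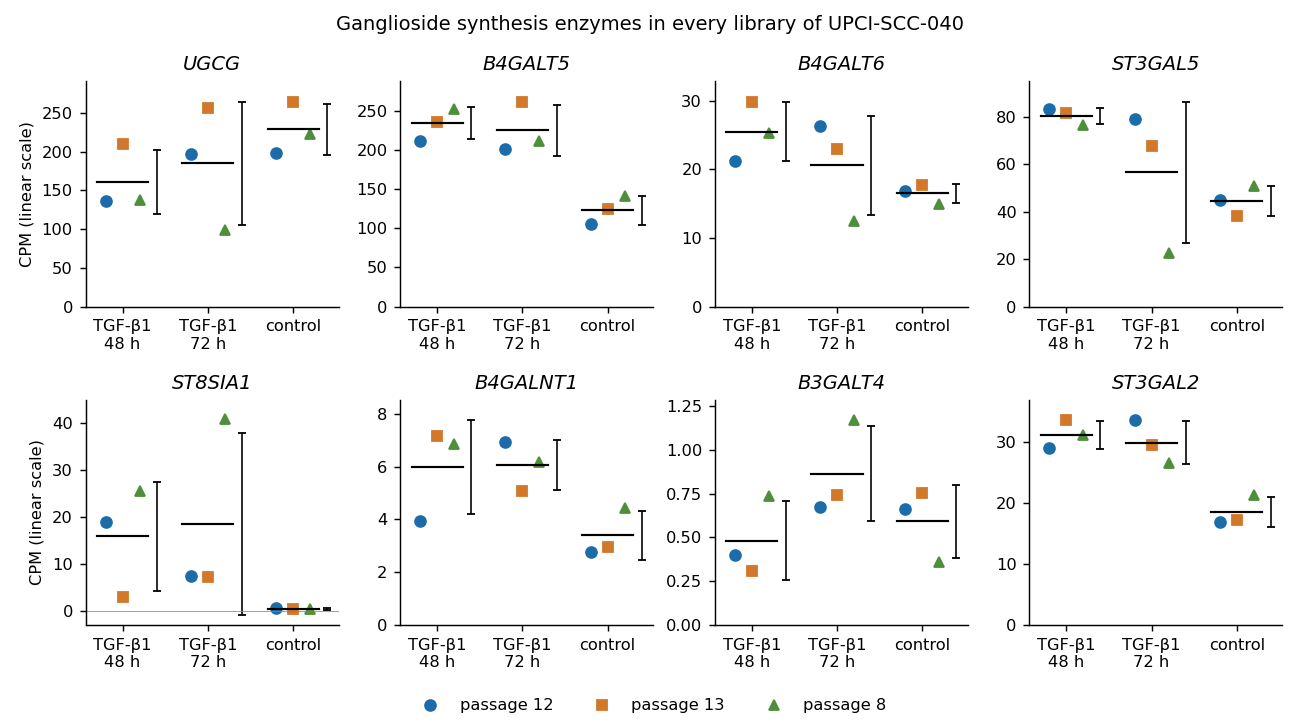
Library-scaled counts (CPM, linear axes starting near 0) of the 8 enzymes in each library, by group from left to right (48 h, 72 h, control), with passages as symbols, the group mean as a line and its SD as a bar (n = 3). ST8SIA1 reached 3.12 to 40.8 CPM in treated libraries and at most 0.723 CPM in controls, while ST3GAL5 in passage 8 at 72 h fell below the controls at 22.7 CPM.

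The enzymes at the start of the pathway did not share a direction. B4GALT5 (ENSG00000158470, chr20:49632945-49713878, minus strand), the main lactosylceramide synthase, was higher at both times. It had 212, 236 and 253 CPM at 48 h and 201, 262 and 212 CPM at 72 h, against 105, 124 and 141 CPM in controls, so that the groups did not overlap. The log2 fold change was 0.92 ± 0.16 at 48 h (adjusted p = 0.00315) and 0.87 ± 0.16 at 72 h (adjusted p = 0.00276, edgeR with Benjamini-Hochberg adjustment over all genes tested, as for all adjusted p below). Both calls held when any single library was left out. In single passages the difference was 0.84 to 1.01 at 48 h, the narrowest range among the 8 genes at that time, and 0.58 to 1.08 at 72 h.

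UGCG (ENSG00000148154, chr9:111896766-111935369, plus strand), which makes the glucosylceramide that all these lipids start from, did not pass the test. It had 137, 210 and 138 CPM at 48 h and 197, 257 and 99.3 CPM at 72 h, against 199, 265 and 223 CPM in controls. The groups overlapped at both times, and in each passage the treated library was below the control of that passage. On the log2 scale it differed by -0.50 ± 0.32 at 48 h (95% interval -1.22 to 0.21, adjusted p = 0.255) and -0.31 ± 0.32 at 72 h (-1.02 to 0.40, adjusted p = 0.458). At 72 h the difference lay almost wholly in passage 8, at -1.16, against -0.02 and -0.04 in passages 12 and 13.

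B4GALT6 (ENSG00000118276, chr18:31622247-31685836, minus strand) catalyses the same reaction as B4GALT5 and had smaller differences. It had 21.2, 29.9 and 25.3 CPM at 48 h and 26.3, 23.0 and 12.5 CPM at 72 h, against 16.8, 17.7 and 15.0 CPM in controls. All 48 h libraries lay above the controls, and at 72 h passage 8 lay below them. Log2 fold changes were 0.62 ± 0.25 at 48 h (adjusted p = 0.0848) and 0.32 ± 0.25 at 72 h (adjusted p = 0.335), neither past the threshold of 0.05. Without the passage 8 library at 72 h both passed, at 0.63 (adjusted p = 0.00898) and 0.58 (adjusted p = 0.0224). Some 107 exon bases are shared with AC017100.1 on the other strand, which had 15 to 51 counts in all libraries.

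ST3GAL5 (ENSG00000115525, chr2:85837120-85905199, minus strand), the GM3 synthase that makes the substrate of ST8SIA1, was higher in every 48 h library. It had 83.2, 81.5 and 76.5 CPM at 48 h and 79.3, 67.9 and 22.7 CPM at 72 h, against 44.8, 38.1 and 50.9 CPM in controls. At 72 h passages 12 and 13 lay above the controls and passage 8 below them, the same library in which ST8SIA1 was highest. The log2 fold change of 0.85 ± 0.37 at 48 h did not pass the adjustment (adjusted p = 0.115), nor did 0.35 ± 0.37 at 72 h (adjusted p = 0.483). These calls turned on 1 library: without passage 8 at 72 h, which also entered the estimate of spread at 48 h, the values were 0.86 (adjusted p = 0.000719) and 0.73 ± 0.14 (adjusted p = 0.00324).

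The enzymes that lengthen the chain were low next to the starting ones. B4GALNT1 (ENSG00000135454, chr12:57623410-57633355, minus strand), the GM2 and GD2 synthase, had 3.94, 7.17 and 6.85 CPM at 48 h and 6.93, 5.07 and 6.18 CPM at 72 h, against 2.77, 2.95 and 4.44 CPM in controls. The 72 h libraries all lay above the controls, and at 48 h passage 12 fell within their range. The log2 fold change was 0.82 ± 0.29 at 48 h (adjusted p = 0.0585) and 0.84 ± 0.29 at 72 h (adjusted p = 0.0435). The 72 h call was lost when any of 5 libraries was left out, namely the control of passage 12 (adjusted p = 0.146) or 13 (0.139), the 48 h library of passage 8 (0.053), or the 72 h library of passage 12 (0.108) or 8 (0.0628). Its gene shares 2136 exon bases with SLC26A10 on the other strand, for which at most 1 count was listed in any library.

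ST3GAL2 (ENSG00000157350, chr16:70375978-70439237, minus strand), which caps the chain with a terminal sialic acid, was higher at both times. It had 29, 33.6 and 31.1 CPM at 48 h and 33.6, 29.5 and 26.5 CPM at 72 h, against 16.9, 17.2 and 21.3 CPM in controls. Groups did not overlap. Its log2 fold change was 0.76 ± 0.15 at 48 h (adjusted p = 0.0051) and 0.69 ± 0.15 at 72 h (adjusted p = 0.00531), and both calls held when any single library was left out. It shares 590 exon bases with AC012184.1 on the other strand, for which 0 counts were listed in all libraries.

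B3GALT4 (ENSG00000235863, chr6:33277132-33284832, plus strand), the GM1 and GD1b synthase, was near the limit of detection. It had 8, 5 and 9 counts at 48 h and 12, 13 and 19 at 72 h, against 11, 14 and 5 in controls. The groups overlapped in both comparisons. Its log2 fold change was -0.37 ± 0.47 at 48 h (95% interval -1.40 to 0.67) and 0.51 ± 0.43 at 72 h (-0.45 to 1.48), with adjusted p = 0.582 and 0.363, and at this depth a change of about these sizes was not detectable.

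Counted over the pathway without ST8SIA1, 2 of the other 7 genes were past the threshold and higher at 48 h (B4GALT5 and ST3GAL2) and none lower, beside 14.9% higher and 16.0% lower of the 15440 genes tested. At 72 h, 3 of 7 were higher (B4GALNT1 in addition) and none lower, beside 20.4% higher and 19.4% lower. The list was chosen with ST8SIA1 known to be higher, so nothing is read from these counts. Counting ST8SIA1, the groups did not overlap in 5 of 8 genes at 48 h, where 53.7% of all genes did not. At 72 h it was 4 of 8, where 55.1% of all genes did not, so the members' share was near the background. Without ST8SIA1 the log2 fold changes ran from -0.50 (UGCG) to 0.92 (B4GALT5) at 48 h and from -0.31 (UGCG) to 0.87 (B4GALT5) at 72 h. The median over all genes was 0.00 at 48 h and 0.03 at 72 h. Both comparisons use the same controls.

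**Figure D2:**
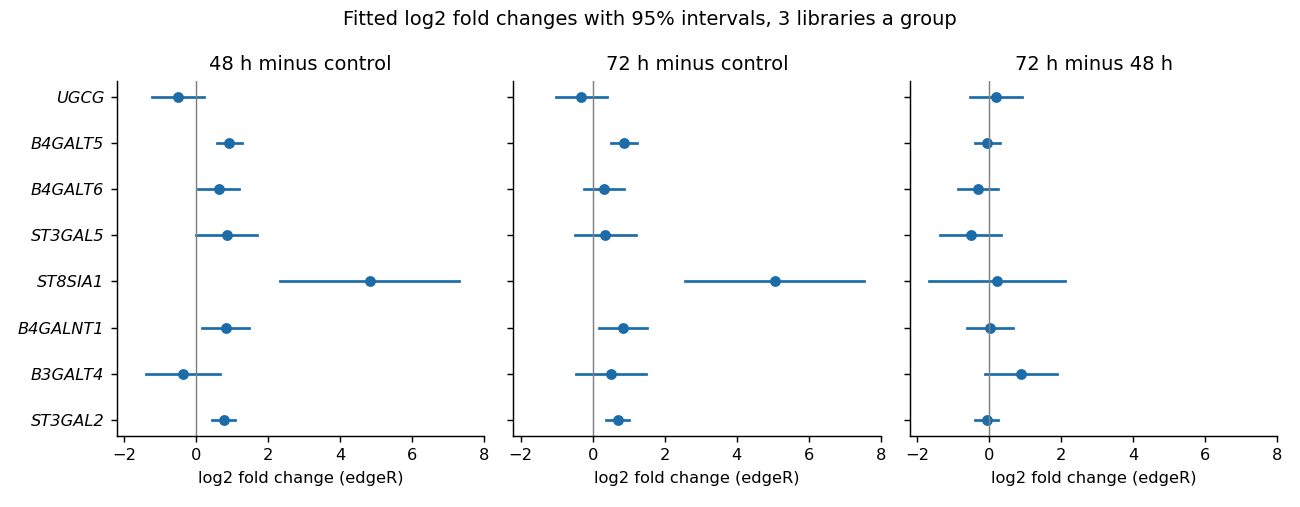
Log2 fold change of each enzyme from edgeR (points) with its 95% interval (lines) for 48 h over control, 72 h over control and 72 h over 48 h, 3 libraries a group. B4GALT5 and ST3GAL2 have narrow intervals above 0 at both times, ST8SIA1 has a wide one around 4.83 and 5.05, and every interval for 72 h over 48 h crosses 0.

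Between the treatment times no enzyme passed the test. None of the 8 passed the adjusted threshold by edgeR or by DESeq2, and none had an unadjusted p under 0.05, beside 0% called among all genes by edgeR, where 1382 genes had an unadjusted p under 0.05 and DESeq2 called 41. B3GALT4 had the highest difference of 72 h over 48 h, 0.88 ± 0.45 (95% interval -0.12 to 1.88, adjusted p = 0.58), and ST3GAL5 the lowest, -0.51 ± 0.37 (-1.35 to 0.34, adjusted p = 0.686). The intervals of B4GALT5 (-0.40 to 0.29) and ST3GAL2 (-0.39 to 0.26) were the narrowest.

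Levels were compared between genes only per length, as TPM, a length-scaled share of the library, over the union of annotated exons. In 48 h cells B4GALT5 was highest at 189 ± 19.0 TPM, followed by UGCG at 133 ± 32.1, ST3GAL5 at 18.8 ± 0.582, B4GALT6 at 18.4 ± 2.93, ST3GAL2 at 12.3 ± 0.801, ST8SIA1 at 4.24 ± 3.11, B4GALNT1 at 2.86 ± 0.849 and B3GALT4 at 0.784 ± 0.384 (SD, n = 3). At 72 h B4GALT5 (181 ± 35.9 TPM) and UGCG (151 ± 66.7 TPM) overlapped, as did B4GALT6, ST3GAL5, ST3GAL2, ST8SIA1 and B4GALNT1 with their neighbours in the order. In controls UGCG led at 177 ± 23.1 TPM, ahead of B4GALT5 at 93.3 ± 13.5 TPM with no overlap, and ST8SIA1 was last at 0.136 ± 0.0394 TPM. By its mean ST8SIA1 stood in place 6 of 8 at both treatment times and in place 8 in controls. At both treatment times it overlapped with B4GALNT1, the next in the order, and at 72 h the mean rested on passage 8 (11.2 TPM), since in passages 12 and 13 ST8SIA1 (1.80 and 1.96 TPM) lay below B4GALNT1 (2.98 and 2.49 TPM). With the exons of coding transcripts alone, ST3GAL5 averaged 41.7 TPM at 48 h and 28.6 TPM at 72 h, against 21.8 TPM in controls, and ST8SIA1 moved to place 7 at 48 h.

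UGCG and B4GALT5 together held 84.1% to 86.2% of the summed TPM of the 8 genes at 48 h and 85.1% to 89.6% at 72 h, against 88.7% to 91.1% in controls. Within this pair the shares differed between treated and control libraries. UGCG held 33.4%, 41.1% and 30.2% of the sum at 48 h and 42.7%, 44.8% and 28.0% at 72 h, against 58.6%, 62.5% and 55.4% in controls. B4GALT5 held 50.7%, 45.1% and 54.1% at 48 h and 42.5%, 44.7% and 58.3% at 72 h, against 30.1%, 28.6% and 34.4% in controls. Neither gene's share in a treated library reached the range of the controls. The shares are parts of 1 sum, so that of UGCG can fall where B4GALT5 rises, without a fall of UGCG itself. UGCG was not called lower, and in passage 13 at 72 h it had 219 TPM, against 202 TPM in the control of that passage.

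**Figure D3:**
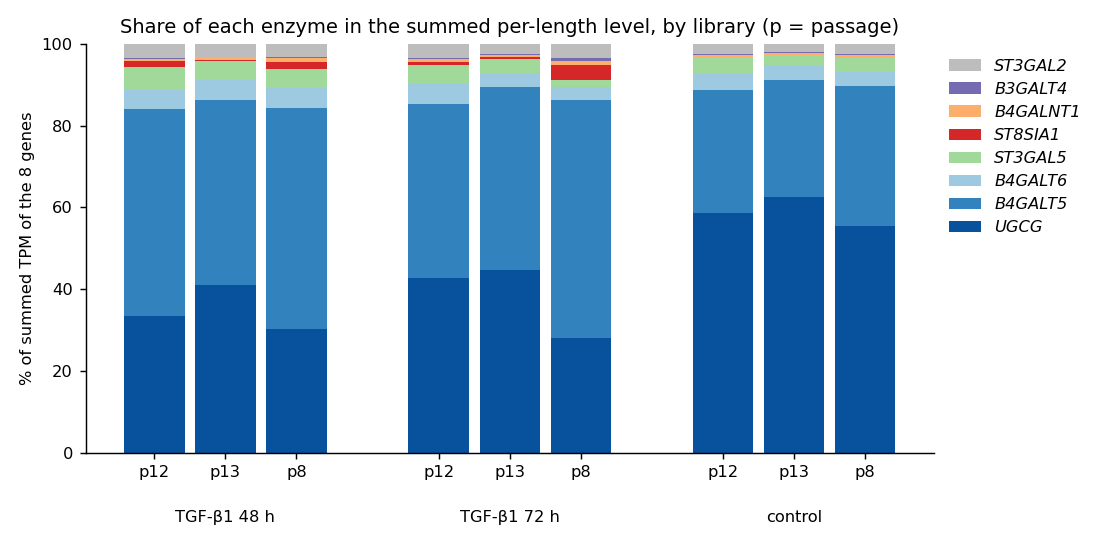
Percent of the summed TPM of the 8 enzymes held by each, as stacked bars from 0 to 100% for the 9 libraries (48 h, 72 h, control; p is the passage). UGCG held 55.4% to 62.5% in controls and at most 44.8% in treated libraries, and ST8SIA1 is visible as a band in passages 12 and 8 at 48 h and in passage 8 at 72 h, where it held 3.66%.

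ST3GAL5 and ST8SIA1 act in sequence, to GM3 and then to GD3, and the TPM ratio of ST8SIA1 to ST3GAL5 set the passages apart. It was 0.257, 0.0432 and 0.376 at 48 h and 0.107, 0.120 and 2.02 at 72 h, against 0.0182, 0.0127 and 0.0111 in controls. Only in passage 8 at 72 h did it exceed 1, and with the length of coding transcripts alone it was 0.903 there, so the order of the pair in that library depends on the length used. The ratio of B4GALT5 to B4GALT6 was 11.2, 8.86 and 11.2 at 48 h and 8.60, 12.8 and 19.1 at 72 h, against 7.01, 7.86 and 10.5 in controls. B4GALT5 was the more abundant of these isoenzymes in every library. ST8SIA1 relative to B4GALNT1, which both act on GM3, was 2.66, 0.241 and 2.06 at 48 h and 0.602, 0.789 and 3.65 at 72 h, against 0.144, 0.0804 and 0.0624 in controls.

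Across the 9 libraries the pattern of ST8SIA1 was followed closely by genes outside the pathway. By Pearson correlation of log2 CPM over 9 libraries, among 13466 genes, the 5 most like it were C19orf66 (0.996), OAS2 (0.995), SP100 (0.995), SP110 (0.993) and PDCD4 (0.993), given as a description since treated and control libraries form separate groups. Within the 6 treated libraries alone the values were 0.989, 0.978, 0.987, 0.973 and 0.973 in the same order. These libraries also entered the choice of the 5 genes, so high values here and a like order of passages follow in part from that choice. C19orf66 had 37.8, 13.8 and 51.1 CPM at 48 h and 24.6, 21.7 and 82.5 CPM at 72 h, against 4.10, 3.71 and 4.16 CPM in controls. OAS2, an interferon-induced oligoadenylate synthetase, had 318, 109 and 465 CPM at 48 h and 240, 169 and 758 CPM at 72 h, against 37.5, 28.0 and 30.9 CPM in controls. Both were lowest in passage 13 and highest in passage 8 at each time, as ST8SIA1 was. A correlation with ST8SIA1 above 0.9, a looser bound, was widespread, found in 854 genes, and all points share libraries and depth. Among the other 7 enzymes the correlation with ST8SIA1 was 0.80 for B4GALT5, 0.73 for ST3GAL2, 0.64 for B4GALNT1, 0.36 for B3GALT4, 0.17 for B4GALT6, 0.11 for ST3GAL5 and -0.79 for UGCG.

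**Figure D4:**
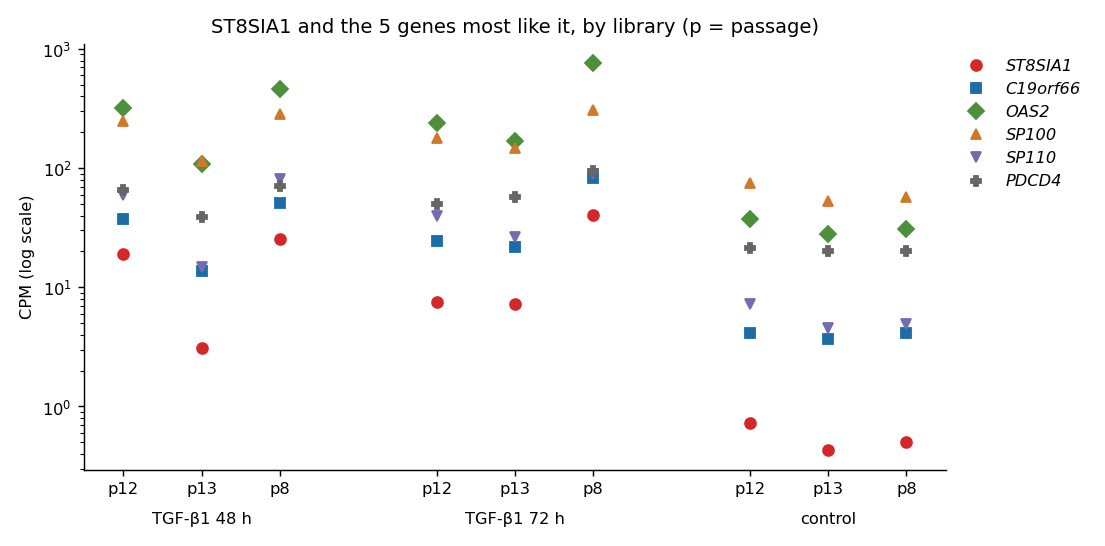
CPM (log axis) of ST8SIA1 and the 5 genes most like it in each library (48 h, 72 h, control; p is the passage). All 6 genes are lowest in controls and highest in passage 8 at 72 h, where ST8SIA1 reached 40.8 CPM and OAS2 758 CPM.

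Markers of other cell types were read beside ST8SIA1. The 6 neural crest and melanocyte markers summed to 2.28 to 3.49 CPM at 48 h and 2.53 to 3.19 CPM at 72 h, against 1.58 to 2.77 CPM in controls, with SOX10 at 0 in every library. PMEL alone of them averaged at least 1 CPM, with 2.06 CPM at 48 h and 1.89 CPM at 72 h, against 1.71 CPM in controls. The 8 fibroblast markers summed to 36.1 to 89.9 CPM at 48 h and 20.2 to 112 CPM at 72 h, against 10.2 to 12.6 CPM in controls. Of these 8, only COL1A1 and COL1A2 averaged at least 1 CPM in a treated group, THY1 was at 0 in both treated groups and LUM, DCN and PDGFRA at 0 in controls. COL1A2 followed the passages as ST8SIA1 did in passage 8, with 17.7 CPM at 48 h and 20.8 CPM at 72 h, against 0.932 CPM in the control. The part of such cells in the result was not tested.

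The wider pathway was read through 7 lists with 84 genes, of which 70 were tested. At 48 h 14 were higher and 2 lower, or 22.9% of those tested, and at 72 h 23 were higher and 1 lower, or 34.3%. By direction, 20% were higher and 2.86% lower at 48 h, and 32.9% higher and 1.43% lower at 72 h. Of all genes, 14.9% were higher and 16.0% lower at 48 h, and 20.4% higher and 19.4% lower at 72 h. The counts of single lists below stand beside the same shares, and nothing is read from them. No pathway gene was called between the times by edgeR.

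Among genes of ceramide supply, 5 of 14 tested were higher at 48 h and 6 of 14 at 72 h, with none lower. Of all genes, 14.9% were higher at 48 h and 20.4% at 72 h. The 6 at 72 h included ORMDL2 and ORMDL3, with log2 fold changes of 0.56 ± 0.20 and 0.79 ± 0.13 (adjusted p = 0.0471 and 0.00184). These are regulators of synthesis and not enzymes, so the count gives no direction of supply. CERS4, a ceramide synthase, had 28.2, 24.9 and 27.5 CPM at 48 h and 32.8, 36.8 and 58.0 CPM at 72 h, against 12.2, 12.1 and 12.5 CPM in controls. Its log2 fold change was 1.13 ± 0.20 at 48 h (adjusted p = 0.00377) and 1.79 ± 0.20 at 72 h (adjusted p = 0.000468). SPTLC3, a subunit of serine palmitoyltransferase, the first step of sphingolipid synthesis, rose by 0.85 ± 0.21 and 1.19 ± 0.21, and KDSR, which reduces the product of that step, by 0.93 ± 0.12 and 0.81 ± 0.12 at 48 h and 72 h. Of 11 tested genes on other routes of ceramide, SMPD1, the acid sphingomyelinase, was called higher at both times (0.66 ± 0.20 and 1.22 ± 0.20). PLEKHA8, which carries glucosylceramide through the Golgi, had 52.4, 58.3 and 54.4 CPM at 48 h and 49.9, 58.5 and 60.5 CPM at 72 h, against 26.9, 35 and 29.8 CPM in controls, a rise of 0.85 ± 0.13 and 0.88 ± 0.13. CPTP, a ceramide-1-phosphate carrier, was called at 72 h (0.59 ± 0.17, adjusted p = 0.0205).

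Breakdown enzymes moved in both directions. Of 12 tested, 4 were higher and 1 lower at 48 h, beside 14.9% and 16.0% of all genes. At 72 h 6 were higher and 1 lower, beside 20.4% and 19.4%. The lower gene was NEU3, the plasma membrane sialidase that acts on gangliosides, with 9.53, 13.1 and 9.70 CPM at 48 h and 14.7, 10.8 and 7.35 CPM at 72 h, against 32.0, 28.0 and 31.5 CPM in controls. It fell by 1.5 ± 0.24 at 48 h (adjusted p = 0.00239) and by 1.47 ± 0.24 at 72 h (adjusted p = 0.00167), with no overlap between the groups. The lysosomal enzymes rose: NEU1, the lysosomal sialidase, by 1.03 ± 0.22 and 1.54 ± 0.22, and ARSA, the sulfatidase arylsulfatase A, by 1.5 ± 0.24 and 1.98 ± 0.24. NEU1 had 73.8, 76.9 and 88.5 CPM at 48 h and 88.4, 89.6 and 162 CPM at 72 h, against 39.1, 38.2 and 39.9 CPM in controls. The opposite directions of the 2 sialidases were seen in every passage.

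On other branches, 2 of 15 tested genes were higher and 1 lower at 48 h, beside 14.9% and 16.0% of all genes. At 72 h 4 were higher, beside 20.4% of all genes, so the shares higher were near the background. ST6GALNAC6, which adds sialic acid to make alpha-series gangliosides, rose by 0.94 ± 0.23 at 48 h (adjusted p = 0.0141) and by 1.44 ± 0.23 at 72 h (adjusted p = 0.00161). ST6GALNAC4, of the same family, and A4GALT, the Gb3 synthase, were called at 72 h only (1.45 ± 0.38 and 1.25 ± 0.37, adjusted p = 0.014 and 0.0227), and their differences between the times did not pass (adjusted p = 0.532 and 0.54). The lower gene at 48 h, named after its values were seen, was ST3GAL1, with 2, 4 and 2 counts at 48 h and 11, 7 and 13 at 72 h, against 13, 12 and 13 in controls. Of the other sialyltransferases in the family of ST8SIA1, ST8SIA2, ST8SIA3 and ST8SIA5 had too few counts to be tested. ST8SIA4, the polysialyltransferase, and ST8SIA6 were tested and not called at either time, with ST8SIA6 at 12 to 26 counts at 48 h and 8 to 29 at 72 h, against 4 to 13 in controls.

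Among 14 sugar donor genes, 1 was higher at 48 h and 4 at 72 h, beside 14.9% and 20.4% of all genes. GNE, the first enzyme of sialic acid synthesis, had 13.8, 22.1 and 26.3 CPM at 48 h and 17.5, 16.6 and 60.6 CPM at 72 h, against 9.22, 9.83 and 12.3 CPM in controls. It was highest in the library in which ST8SIA1 was highest. Its log2 fold change was 0.99 ± 0.50 at 48 h (adjusted p = 0.166) and 1.60 ± 0.51 at 72 h (adjusted p = 0.0348). GALT and GALK1, of galactose metabolism, were called at 72 h (0.88 ± 0.16 and 0.72 ± 0.25), and GALT also at 48 h (0.71 ± 0.16). The 72 h calls of GNE, GALK1, CPTP, A4GALT and ST6GALNAC4 were each lost without 1 or more single libraries, among them the control of passage 12 for all 5 (adjusted p = 0.107, 0.152, 0.0721, 0.0837 and 0.0565), while those of the other 10 named genes held under each single omission. At 48 h the calls of ST6GALNAC6, SPTLC3 and SMPD1 were lost without the control of passage 13 (adjusted p = 0.0565, 0.0599 and 0.0966). The call of ST6GALNAC6 was also lost without the control of passage 12 (adjusted p = 0.0552), and that of SPTLC3 without the 48 h library of passage 12 (adjusted p = 0.0607). That of SMPD1 was lost without either other control as well (adjusted p = 0.0929 and 0.0959), and without the 48 h library of passage 13 its log2 fold change was 0.36 (adjusted p = 0.0888). GALK1 at 72 h was 0.41 (adjusted p = 0.134) without the passage 8 library at that time.

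**Figure D5:**
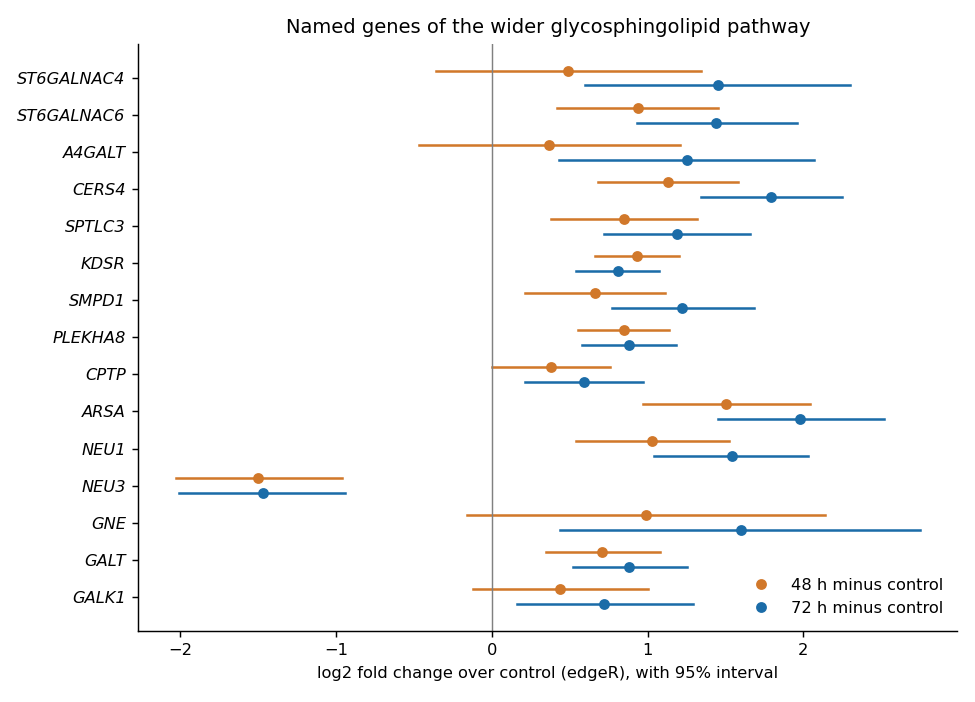
Log2 fold change over control at 48 h (orange) and 72 h (blue) from edgeR with 95% intervals for the 15 named genes of the wider pathway. NEU3 alone lies below 0, at -1.5 and -1.47, and ARSA and CERS4 have the highest values at 72 h, 1.98 and 1.79.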

How the data were processed

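The deposited values are a raw count of reads per gene and library, not normalized, per the labels and the file values. Per the submitters' processing notes, the tools were STAR 2.5.2a, featureCounts 1.5.0-p1, bcl2fastq 2.17.1.14 and FastQC 0.11.5, and the build hg38. The sources used here do not give the annotation release, the strand setting or how multiply aligned reads were handled, so reads of overlapping genes on opposite strands cannot be told apart. Symbols and coordinates came from GENCODE release 29 (57895 of 58233 identifiers matched, and the other 338 were kept by identifier).

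Counts were tested with edgeR 4.0.16 under R 4.3.3: a robust quasi-likelihood fit of group to all 9 libraries (6 residual degrees of freedom) after TMM scaling and filterByExpr, with p-values adjusted over 15440 genes by Benjamini-Hochberg at a threshold of 0.05. The script was tested on simulated data. Standard errors are approximate, from the fold change and F.

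Same-numbered libraries share a passage per the labels, so a fit with the replicate number as a block was an alternative. Deviations from group means of same-numbered libraries correlated at 0.11, 0.08 and 0.12 (48 h and control), 0.04, 0.11 and 0.10 (72 h and control) and -0.03, 0.49 and 0.49 (72 h and 48 h) for replicates 1, 2 and 3. Other alternatives were DESeq2 1.42.0, other scalings, filters and thresholds, and omission of libraries.

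The members and gene lists were chosen with earlier results of these data known. A gene of the treatment check other than SMAD7 and ID1 is not reported here. All 8 members are named. Of each pathway list the named genes are the 3 with the largest change at 72 h among those past the threshold with at least 1 CPM. Promoters came from RefSeq, GRCh38.p14.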

Additional observations from a re-analysis of the deposited data

How the results depend on the processing

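With 3 libraries a group, calls depended on which libraries entered the estimate of spread. Omission of 1 library or 1 passage gave 0 to 6 of the 8 enzymes called at 48 h over control and 1 to 5 at 72 h over control, counting ST8SIA1, whose differences are a description, and 765 to 6289 and 2602 to 6184 of all genes. The lowest count at 48 h came without replicate 1 (passage 12) and the highest without the passage 8 library at 72 h. The fit of only the 2 groups compared called 6 enzymes at 48 h. Against a 1.5-fold change (glmTreat) none of the 7 enzymes other than ST8SIA1 was called at either time, beside 1109 and 2207 of all genes. For 72 h over 48 h, where edgeR called 0 genes, DESeq2 called 41 and the fit with no filter 211, none of them among the 8. Of the wider pathway, 16 genes were called at 48 h and 24 at 72 h, and omissions gave 4 to 24 and 14 to 27. The replicate block changed no call among the enzymes. Of the 7 other than ST8SIA1, 2, 3 and 0 were past the threshold at 48 h, 72 h and between the times, beside 5113, 6465 and 0 of all genes.

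Over all settings the log2 fold change of ST8SIA1 over control was 4.27 to 5.32 at 48 h and 3.68 to 5.67 at 72 h. B4GALT5 and ST3GAL2 kept their calls under every single library and lost them at 1 or 2 omissions of a whole passage, which leave 2 libraries a group. Directions that turned round were all of uncalled values under omissions, whose ranges were -0.98 to 0.10 for B3GALT4 and -0.09 to 0.62 for A4GALT at 48 h over control, and, for 72 h over 48 h, -1.09 to 0.75 for ST8SIA1, -0.32 to 0.27 for B4GALNT1, -0.14 to 0.50 for UGCG, -0.20 to 0.05 for B4GALT5 and -0.21 to 0.02 for ST3GAL2. The cause was not tested. Low counts limit B3GALT4 and the controls of ST8SIA1.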
